A study of Mus musculus with 9 samples.

Results

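The semaphorins, the plexins and the neuropilins form one ligand and receptor system, and their transcripts were followed in mouse embryonic fibroblasts (MEFs) placed under hyperosmotic stress. Members were taken by gene symbol from the protein-coding genes, as semaphorins of classes 3 to 7, plexins A to D, and neuropilins 1 and 2. This gave 31 of the 35275 genes measured, made up of 20 semaphorins, 9 plexins and 2 neuropilins. Of the 31, 23 had enough counts to be tested, 15 of them semaphorins, 6 plexins and 2 neuropilins. The members were chosen by symbol, but the families themselves were selected on the counts of these same libraries, since their fold changes between the 3 conditions were known when they were picked, so every fold change and adjusted p below is a description of these libraries and not independent evidence.

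All MEFs were wild type of the C57Bl/6 strain, kept in DMEM with serum, and they differed only in the sucrose added to the medium. Iso-osmolar cells (300 mOsm) were compared with cells held for 3 h at 500 mOsm (200 mM sucrose added) or at 600 mOsm (300 mM sucrose added), with 3 libraries in each group. The sources do not say whether the 3 libraries of a group came from separate cultures, so p-values measure the spread between these libraries, which may be technical. Total counts on genes lay between 21716042 and 26740832 per library.

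Semaphorins are extracellular or membrane-bound cues that steer growing axons, migrating cells and sprouting vessels. Plexins are their signalling receptors, and the cytoplasmic part of a plexin acts on small GTPases and so on the actin skeleton and on integrin adhesion. Most secreted class 3 semaphorins reach plexins through a neuropilin, which also serves as a coreceptor for vascular endothelial growth factor. The membrane semaphorins of classes 4 to 6 bind plexins directly, and the lipid-anchored Sema7A binds plexin C1 and integrins.

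Under stress the semaphorin transcripts were no longer led by Sema7a, and no tested receptor gene changed by more than 2.27-fold. Sema7a fell most, and it had the lowest log2 fold change of all 13082 genes tested at 500 mOsm and the 9th lowest at 600 mOsm. Of the class 4 genes, Sema4b, Sema4c and Sema4f fell beside it, as did the receptor gene Plxnd1, whereas Sema4d and Sema3b rose. Against iso-osmolar medium, 8 of the 23 members rose and 8 fell at 500 mOsm, where 13.2% and 14.8% of all genes tested were higher and lower by edgeR's quasi-likelihood test at an adjusted p under 0.05. At 600 mOsm 6 members rose and 8 fell, against 15.1% and 20.0% of all genes. Between the stress levels, 4 members were higher and 3 lower at 600 than at 500 mOsm, against 11.9% and 17.2% of all genes. In either direction this made 16, 14 and 7 members, against 28.0%, 35.1% and 29.1% of all genes. At least 1 of the 3 comparisons called 18 of the 23 members (78.3%), and 51.0% of all genes tested.

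Few genes of the table changed by as much as the largest of these. By at least 1 on the log2 scale, 2 members rose and 5 fell at 500 mOsm, against 5.43% and 3.14% of all genes tested, and 3 rose and 3 fell at 600 mOsm, against 2.42% and 3.26%. Between the stress levels 0 members were higher and 1 was lower by that much, against 1.57% and 4.98% of all genes.

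The direction was mixed, and the median size of the changes was larger over members than over all genes. At 600 mOsm the median over members lay near that over all genes. At 500 mOsm it lay just under the upper quartile of all genes, 0.18. The median log2 fold change of the members was 0.16 at 500 mOsm and 0.04 at 600 mOsm, against 0.01 over all genes in both. The median absolute log2 fold change was 0.48 and 0.34 for the members, and 0.17 and 0.22 over all genes. Both comparisons use the same iso-osmolar libraries, so their values are set side by side and were not tested against each other.

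**Figure D1:**
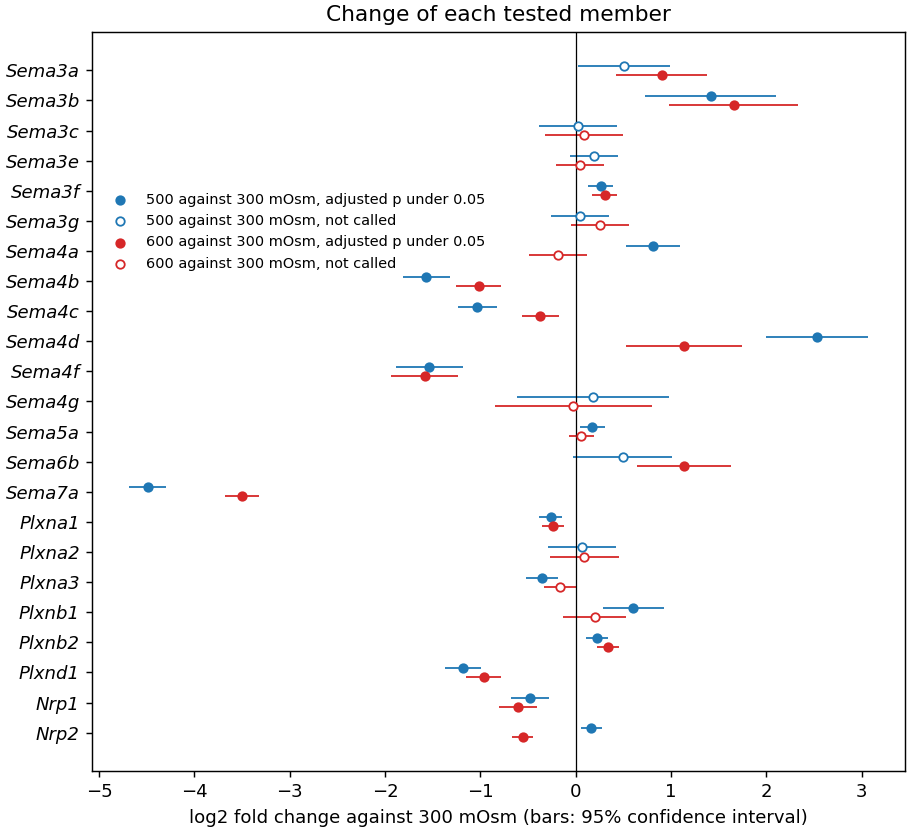
Log2 fold change of each tested member at 500 mOsm (blue) and 600 mOsm (red) against iso-osmolar medium, with 95% confidence intervals and filled points for an adjusted p under 0.05. Sema7a stands at -4.49 and -3.50, far left of every other member, and Sema4d at 2.53 is farthest right.

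The sequences upstream of the 5 members that fell by at least 1 on the log2 scale at 500 mOsm are shown first, since they carry the largest losses of the system. The 5 are Sema7a (ENSMUSG00000038264, chr9:57940113-57962864, + strand), Sema4b (ENSMUSG00000030539, chr7:80186841-80226394, + strand), Sema4f (ENSMUSG00000000627, chr6:82911885-82939769, - strand), Sema4c (ENSMUSG00000026121, chr1:36548642-36558381, - strand) and Plxnd1 (ENSMUSG00000030123, chr6:115954811-115995005, - strand), with coordinates of mm10. Each line gives the 250 bases before a RefSeq transcript start in GRCm38.p6, 5′ to 3′ on the strand of the gene. The starts used lay 0, 1 or 29 bases from the end of the gene in the deposited table. Capitals mark matches on either strand to TGANTCA (AP-1), to GGGA followed after any 4 bases by CC (kappaB) and to TGGAAA (the core of the tonicity element TonE), and a match is a match of letters only. The windows are chr9:57939862-57940111 for Sema7a, chr7:80186620-80186869 for Sema4b, chr6:82939770-82940019 for Sema4f, chr1:36558382-36558631 for Sema4c and chr6:115995006-115995255 for Plxnd1.
Sema7a: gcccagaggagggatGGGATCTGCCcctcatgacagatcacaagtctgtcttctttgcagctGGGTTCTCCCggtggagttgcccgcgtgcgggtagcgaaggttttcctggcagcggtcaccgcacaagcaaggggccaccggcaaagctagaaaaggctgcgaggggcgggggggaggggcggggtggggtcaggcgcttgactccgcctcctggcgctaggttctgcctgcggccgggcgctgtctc
Sema4b: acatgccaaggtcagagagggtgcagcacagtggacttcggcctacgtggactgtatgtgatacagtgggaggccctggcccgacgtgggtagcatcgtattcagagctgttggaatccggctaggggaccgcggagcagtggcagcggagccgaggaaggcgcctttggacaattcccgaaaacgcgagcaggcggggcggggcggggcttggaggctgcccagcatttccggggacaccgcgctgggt
Sema4f: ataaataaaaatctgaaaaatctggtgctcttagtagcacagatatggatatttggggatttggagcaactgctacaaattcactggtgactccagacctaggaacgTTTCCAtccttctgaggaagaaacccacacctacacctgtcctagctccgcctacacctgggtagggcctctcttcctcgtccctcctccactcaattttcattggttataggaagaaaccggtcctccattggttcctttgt
Sema4c: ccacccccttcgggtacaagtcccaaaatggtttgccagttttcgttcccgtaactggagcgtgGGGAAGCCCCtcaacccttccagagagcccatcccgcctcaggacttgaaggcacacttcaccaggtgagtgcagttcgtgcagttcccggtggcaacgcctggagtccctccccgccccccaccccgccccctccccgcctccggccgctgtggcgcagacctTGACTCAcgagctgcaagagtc
Plxnd1: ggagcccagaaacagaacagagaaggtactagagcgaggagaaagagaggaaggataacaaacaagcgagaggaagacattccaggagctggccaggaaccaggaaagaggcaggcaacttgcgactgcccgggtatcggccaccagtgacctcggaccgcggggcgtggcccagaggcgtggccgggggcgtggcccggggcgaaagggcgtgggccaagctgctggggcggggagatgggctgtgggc

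In the Sema7a window both capital runs are kappaB letters, beginning 235 and 188 bases before the start. Sema4c held kappaB letters 186 bases and AP-1 letters 22 bases before its start, and Sema4f held the TonE core at 143 bases. In the windows of Sema4b and Plxnd1 none of the 3 motifs was found, which says only that these letters are not there. Of 32536 RefSeq promoter windows of this length, 17.71% held the kappaB letters, 6.73% the AP-1 letters and 18.63% the TonE core. The GC box letters GGGCGG stood in 24 of 29 windows from 20 tested members, and in 32.97% of all windows. The median GC content was 64.4% over these members' windows and 52.4% over all windows. These members had enough counts to be tested, and some, such as Sema4a, gave several windows. All windows were taken without a filter on counts, so the values are not a like-for-like comparison, and a trait of the family was not tested. RefSeq windows were matched for 26 of the 31 members. Windows on chromosome 18, where Sema6a lies, were left out for members, and this filter was not applied to all windows.

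Before stress the semaphorin transcripts were led by a pair of genes, Sema7a and Sema3f. On the per-length scale, Sema7a stood at 23.4 ± 1.22 FPKM (SD, n = 3) and Sema3f at 20.6 ± 0.823 FPKM in iso-osmolar medium, and they made up 32.5% and 28.6% of the summed semaphorin FPKM. The next semaphorins in that order were Sema4b at 4.85 ± 0.176 FPKM and Sema3a at 4.25 ± 1.53 FPKM, which did not differ beyond their spread. All semaphorins together came to 72.2 ± 3.64 FPKM before stress, to 51.8 ± 3.52 FPKM at 500 mOsm and to 54.9 ± 1.06 FPKM at 600 mOsm. In a bulk library, fewer cells that carry a transcript and less of it in each cell cannot be told apart.

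Under stress the share of Sema7a was 2.02% at 500 mOsm and 3.72% at 600 mOsm, while Sema3f came to 47.8% and 45.7% of the semaphorin FPKM. The secreted class 3 genes held 44.8% ± 1.62 of the sum before stress, 75.3% ± 1.60 at 500 mOsm and 74.9% at 600 mOsm, and in FPKM they summed to 32.4 ± 2.62, 39.0 ± 3.41 and 41.1 ± 0.986. Class 4 summed to 12.7 ± 0.468, 7.39 ± 0.502 and 7.38 ± 0.235 FPKM in the same order, with every stressed library under every iso-osmolar one. These shares and sums are given as levels, without a test.

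**Figure D2:**
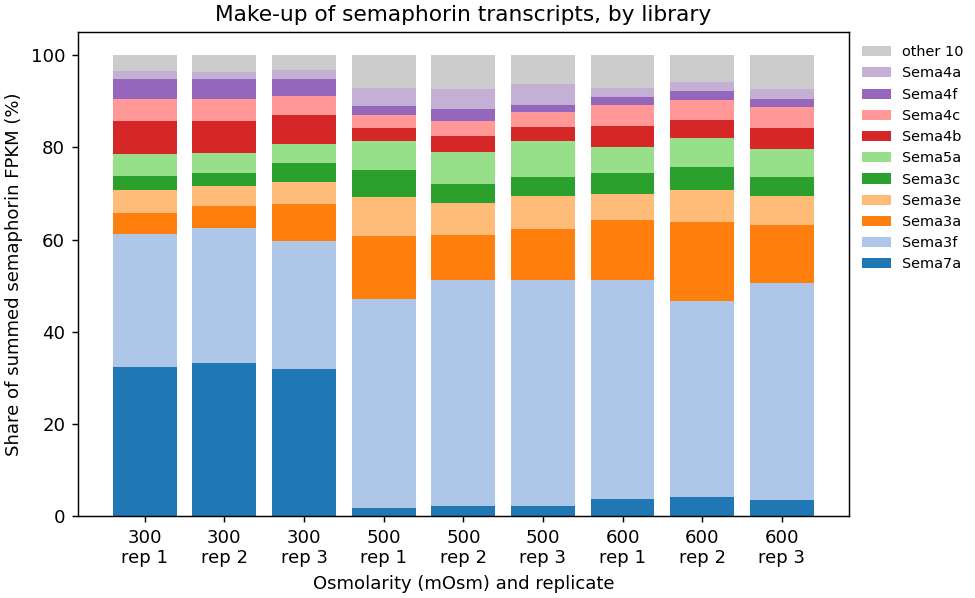
Share of the summed semaphorin FPKM taken by 10 named genes, as stacked bars for the 9 libraries, with the other 10, Sema3g among them, in grey. Sema7a takes 32.0 to 33.1% of every iso-osmolar bar and 1.79 to 4.06% of the stressed bars, where Sema3f is the largest block.

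Sema7a, the only semaphorin anchored to the membrane by a lipid, was measured in CPM (counts over the TMM-adjusted library total, used to compare one gene between groups) at 71.8, 80.0 and 78.8 in the iso-osmolar libraries. At 500 mOsm the libraries stood at 3.28, 3.47 and 3.51 CPM, and at 600 mOsm at 6.66, 7.43 and 6.30 CPM. The 3 groups did not overlap, with the iso-osmolar libraries far above the rest and the 500 mOsm libraries lowest. The level was 22.4-fold lower at 500 mOsm (log2 fold change -4.49 ± 0.09 (SE), edgeR adjusted p = 3.21e-12) and 11.3-fold lower at 600 mOsm (-3.50 ± 0.08, edgeR adjusted p = 6.36e-11). It was 1.98-fold higher at 600 than at 500 mOsm (0.99 ± 0.10, edgeR adjusted p = 1.26e-05). In the order of semaphorins, plexins and neuropilins by FPKM it went from rank 4 of 31 to rank 16 at 500 mOsm and rank 14 at 600 mOsm. Its receptor gene Plxnc1 had 0 to 4 counts per library.

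Among the class 4 semaphorins, membrane proteins that bind plexins of the B and D types, 3 genes fell at both stress levels, 1 rose at both, 1 rose at 500 mOsm only and 1 was not called. Sema4b stood at 18.3, 19.3 and 17.6 CPM in iso-osmolar medium, at 5.94, 7.12 and 5.57 CPM at 500 mOsm and at 9.17, 8.15 and 9.90 CPM at 600 mOsm. Its groups did not overlap in any pair, and the 500 mOsm libraries were again the lowest. The log2 fold change was -1.57 ± 0.11 at 500 mOsm (edgeR adjusted p = 4.15e-07) and -1.02 ± 0.11 at 600 mOsm (edgeR adjusted p = 1.56e-05), with 600 above 500 mOsm by 0.55 ± 0.12 (edgeR adjusted p = 0.0034). Sema4c, a ligand of plexin B2, had the same order at 12.4, 13.5 and 11.9 CPM, then 5.98, 6.41 and 6.06 CPM at 500 mOsm and 9.75, 9.36 and 10.1 CPM at 600 mOsm. It fell by 1.03 ± 0.09 on the log2 scale at 500 mOsm (edgeR adjusted p = 3.41e-06) and by 0.37 ± 0.09 at 600 mOsm (edgeR adjusted p = 0.00697), again without overlap. Of its exon bases 7.27% are shared with the transcript D430040D24Rik on the opposite strand, and reads of the pair cannot be told apart if counting ignored strand.

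Sema4f fell at both levels. Its libraries read 11.7, 13.2 and 11.2 CPM in iso-osmolar medium, 4.22, 5.20 and 3.05 CPM at 500 mOsm and 3.89, 4.48 and 3.71 CPM at 600 mOsm. Both stressed groups lay under the iso-osmolar one and overlapped each other. The log2 fold changes were -1.54 ± 0.16 (edgeR adjusted p = 1.2e-05) and -1.58 ± 0.16 (edgeR adjusted p = 1.18e-05), and the difference between the stress levels was -0.05 with a 95% confidence interval from -0.43 to 0.33. Sema4b, Sema4c and Sema7a thus shared a pattern of being lower at both levels and higher at 600 than at 500 mOsm, which 3 of 23 members and 1.67% of all genes tested had.

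Sema4d and Sema4a, class 4 genes known from immune cells, moved the other way. Sema4d (ENSMUSG00000021451, chr13:51701246-51793747, - strand), the ligand of plexin B1, was low in iso-osmolar medium at 0.637, 0.574 and 0.491 CPM, from 12 to 14 counts. It reached 4.22, 2.75 and 2.94 CPM at 500 mOsm, from 73 to 103 counts, and 1.46, 1.21 and 1.08 CPM at 600 mOsm. No groups overlapped, and 500 mOsm was highest. Sema4d rose 5.78-fold at 500 mOsm (log2 fold change 2.53 ± 0.24, edgeR adjusted p = 5.94e-06) and 2.20-fold at 600 mOsm (1.14 ± 0.28, edgeR adjusted p = 0.00765), and was 2.63-fold lower at 600 than at 500 mOsm (-1.39 ± 0.21, edgeR adjusted p = 0.000329). The rise at 600 mOsm was 0.18 and not called by limma on log2(FPKM + 1), a scale that compresses a gene of 0.127 FPKM. RefSeq starts of Sema4d lay 37064 to 54301 bases inside the gene of the table, so no upstream window of it is shown.

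Sema4a, a membrane semaphorin of lymphocytes and the retina, rose at 500 mOsm alone. It stood at 3.78, 3.61 and 4.62 CPM, then at 6.89, 7.20 and 6.98 CPM at 500 mOsm and at 3.35, 3.22 and 3.98 CPM at 600 mOsm. The 500 mOsm libraries lay above all others, and the other groups overlapped. The log2 fold change was 0.81 ± 0.13 at 500 mOsm (edgeR adjusted p = 0.000389), and 600 was below 500 mOsm by -0.99 ± 0.13 (edgeR adjusted p = 0.000104). At 600 mOsm against iso-osmolar medium it was -0.18, with an interval from -0.48 to 0.12. Sema4g was low, at 0.364 to 1.02 CPM over all libraries, and was not called in any comparison.

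**Figure D3:**
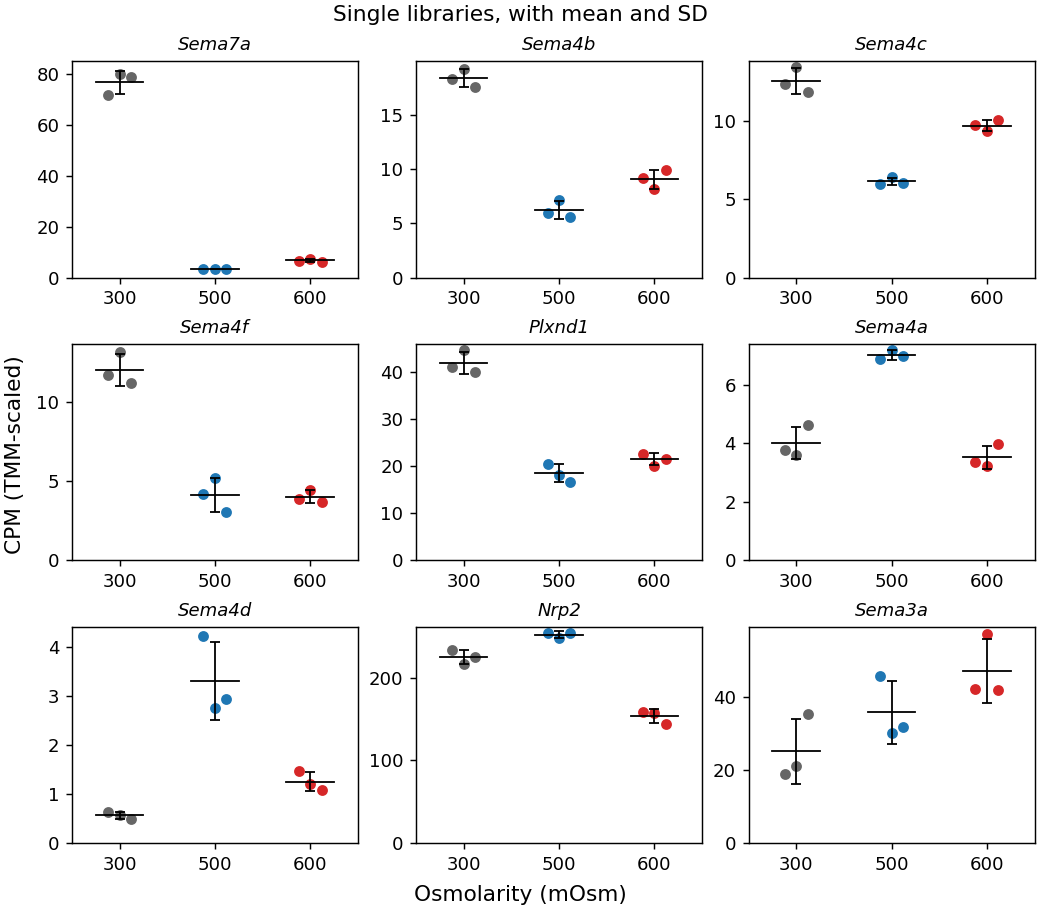
CPM of 9 members in each library (points) with the mean and SD of each group, on axes that start at 0. Sema7a, Sema4b, Sema4c, Sema4f and Plxnd1 are highest at 300 mOsm, Sema4a and Sema4d are highest at 500 mOsm, Nrp2 is lowest at 600 mOsm, and the Sema3a libraries of each group are spread.

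The class 3 semaphorins, secreted repellents that act through neuropilins, were higher wherever they were called. None of the 6 tested genes fell, 2 were higher at 500 mOsm and 3 at 600 mOsm, and 13.2% and 15.1% of all genes were higher there. Sema3f, a ligand that prefers neuropilin 2, was the most abundant of them, at 66.2, 72.8 and 70.2 CPM in iso-osmolar medium, 85.0, 85.7 and 80.1 CPM at 500 mOsm and 87.7, 80.1 and 90.2 CPM at 600 mOsm. Both stressed groups lay above the iso-osmolar libraries. The log2 fold changes were small, 0.26 ± 0.06 at 500 mOsm (edgeR adjusted p = 0.00526) and 0.30 ± 0.06 at 600 mOsm (edgeR adjusted p = 0.00196).

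Sema3b, a gene 72.3 kb from Sema3f and known as a lung tumour suppressor, was rare, with 6 to 11 counts per iso-osmolar library. Its CPM values were 0.455, 0.451 and 0.245, then 1.23, 0.829 and 1.03 at 500 mOsm and 1.0, 1.16 and 1.47 at 600 mOsm. Every stressed library lay above every iso-osmolar one. It rose by 1.41 ± 0.32 on the log2 scale at 500 mOsm (edgeR adjusted p = 0.00454) and by 1.66 ± 0.31 at 600 mOsm (edgeR adjusted p = 0.00134).

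Sema3a, the classical repellent of axons that acts through neuropilin 1, varied widely within groups, by up to 1.87-fold between libraries. It read 18.8, 21.1 and 35.2 CPM in iso-osmolar medium, 45.7, 30.0 and 31.7 CPM at 500 mOsm and 42.2, 57.1 and 41.8 CPM at 600 mOsm. A single library of each group was thus well above the other pair, and the iso-osmolar and 500 mOsm groups overlapped. Sema3a rose at 600 mOsm by 0.90 ± 0.22 on the log2 scale (edgeR adjusted p = 0.00702), and its change at 500 mOsm was 0.51 ± 0.22 (edgeR adjusted p = 0.11). Without iso-osmolar replicate 3 the value at 500 mOsm was 0.84 and was called (edgeR adjusted p = 0.00502).

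The libraries highest in Sema3a were iso-osmolar replicate 3, 500 mOsm replicate 1 and 600 mOsm replicate 2. In each group the same library was also highest in Sema3c, Sema3e and Nrp1. With Sema3a, 4 of 23 members (17.4%) shared these top libraries, against 8.99% of all genes tested. The libraries were picked by Sema3a, so it counts by construction and the shares are not a like-for-like comparison. Over 8403 genes, the deviations of these 3 libraries from their group means correlated at 0.58, 0.39 and 0.44 in the 3 pairs, so they varied together beyond this system. A cause of this was not tested. Leaving out all 3 together, a choice made after seeing the data, Sema3a was called in all 3 comparisons, at 0.63, 1.07 and 0.45 on the log2 scale, and the members higher at 500 mOsm went from 8 to 4, with the calls on Sema3b, Plxnb1, Plxnb2, Nrp2 and Sema5a lost and that on Sema3a gained.

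The other class 3 genes were not called in any comparison. Sema3e, the ligand of plexin D1, ranged from 21.3 to 31.4 CPM over the 9 libraries, and its log2 fold changes were 0.19 at 500 mOsm and 0.04 at 600 mOsm, with intervals from -0.06 to 0.45 and from -0.21 to 0.30. Sema3c, which acts in heart outflow development, ranged from 11.2 to 17.9 CPM and Sema3g from 5.80 to 9.46 CPM. Sema3a, Sema3e and Sema3c lie on chromosome 5 with Sema3d, with gaps of 807.8, 422.7 and 3317.6 kb between neighbours in the order Sema3d, Sema3a, Sema3e, Sema3c. Sema3d had 1 to 8 counts per library and was not tested.

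Of the remaining semaphorins, Sema5a and Sema6b were above the filter. Sema5a, a membrane protein with thrombospondin repeats, stood at 34.9, 34.2 and 34.8 CPM, 38.2, 38.4 and 40.4 CPM at 500 mOsm and 34.2, 37.4 and 36.7 CPM at 600 mOsm. Its 0.17 ± 0.06 at 500 mOsm sat at the threshold (edgeR adjusted p = 0.0494), and most other settings did not call it. Sema6b, a ligand of A plexins, read 1.55, 1.84 and 1.92 CPM, then 2.46, 3.02 and 2.02 CPM at 500 mOsm and 3.47, 3.0 and 5.18 CPM at 600 mOsm. It rose at 600 mOsm by 1.14 ± 0.23 (edgeR adjusted p = 0.0021), without overlap. Its 0.64 ± 0.21 between 600 and 500 mOsm (edgeR adjusted p = 0.0398) came from groups that overlapped. It was not called in 9 of 19 alternatives, among them DESeq2, limma, and leaving out replicate 1 or 3 of either stressed group. Without 600 mOsm replicate 3 it was 0.38. Sema5b, Sema6a, Sema6c and Sema6d had 0 to 10 counts per library, too few to test.

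The plexins had a summed level of 137 ± 4.87 FPKM before stress, 138 ± 4.83 FPKM at 500 mOsm and 145 ± 4.36 FPKM at 600 mOsm. Plxnb2, the receptor of several class 4 semaphorins, was the most abundant member of all in every group, at 77.9 ± 3.21, 90.9 ± 2.60 and 97.3 ± 3.57 FPKM. In CPM its libraries stood at 478, 526 and 485, at 579, 603 and 558 at 500 mOsm and at 634, 591 and 659 at 600 mOsm. Both stressed groups lay above the iso-osmolar one. Plxnb2 rose by 0.22 ± 0.05 (edgeR adjusted p = 0.00738) and 0.34 ± 0.05 (edgeR adjusted p = 0.000424) on the log2 scale. The call at 500 mOsm was lost without 500 mOsm replicate 2 (0.18, edgeR adjusted p = 0.0504).

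Plxna1, a partner of neuropilin 1 in class 3 signalling, was second at 49.7 ± 1.60 FPKM and moved the opposite way. It read 440, 468 and 432 CPM, then 377, 394 and 348 CPM at 500 mOsm and 391, 364 and 383 CPM at 600 mOsm, with both stressed groups under the iso-osmolar one. It fell by 0.26 ± 0.05 (edgeR adjusted p = 0.00271) and by 0.24 ± 0.05 (edgeR adjusted p = 0.00498) on the log2 scale. The FPKM ratio of Plxnb2 to Plxna1, given without a test, was 1.57 ± 0.0304 before stress and went to 2.20 ± 0.0575 at 500 mOsm and 2.34 at 600 mOsm. An antisense gene, Gm26811, covers 10.71% of the exon bases of Plxna1, so reads of the pair cannot be told apart if counting ignored strand.

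Plxnd1, the receptor of Sema3e in endothelium, fell most of the receptors. Its libraries stood at 41.1, 44.7 and 40.1 CPM in iso-osmolar medium, at 20.5, 18.2 and 16.7 CPM at 500 mOsm and at 22.7, 20.1 and 21.6 CPM at 600 mOsm. The iso-osmolar libraries lay far above both stressed groups, which overlapped. The level was 2.27-fold lower at 500 mOsm (-1.18 ± 0.09, edgeR adjusted p = 4.91e-07) and 1.95-fold lower at 600 mOsm (-0.96 ± 0.09, edgeR adjusted p = 3.34e-06).

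Plxnb1, the receptor of Sema4D, was rare, at 3.46, 3.44 and 2.78 CPM, 5.25, 4.67 and 4.81 CPM at 500 mOsm and 4.27, 3.72 and 3.13 CPM at 600 mOsm. Only the 500 mOsm libraries lay clear of the iso-osmolar ones, with a rise of 0.61 ± 0.15 on the log2 scale (edgeR adjusted p = 0.00761). Plxna3 was at 19.7 to 21.2 CPM in iso-osmolar medium and at 15.9 to 16.1 CPM at 500 mOsm, where it fell by 0.35 ± 0.08 (edgeR adjusted p = 0.00427), and it was not called at 600 mOsm, at 17.3 to 19.7 CPM. Plxna2 ranged from 2.33 to 3.39 CPM and was not called. Plxna4 had 1 to 5 counts per library.

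Plxnb3 was also under the filter, at 3, 1 and 5 counts in iso-osmolar medium, 18, 9 and 10 counts at 500 mOsm and 3, 11 and 8 counts at 600 mOsm. With no filter on low counts its log2 fold change at 500 mOsm was 1.86 (edgeR adjusted p = 0.00961), a value that rests on these few counts.

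The neuropilins, which hold class 3 semaphorins and growth factors for the plexin and VEGF receptors, differed from each other. Nrp2 (ENSMUSG00000025969, chr1:62703285-62818695, + strand) was the third of all members at 33.7 ± 1.58 FPKM in iso-osmolar medium. Its libraries read 234, 217 and 225 CPM, then 254, 248 and 255 CPM at 500 mOsm and 159, 158 and 144 CPM at 600 mOsm. The 600 mOsm libraries lay below all others, and those at 500 mOsm just above the iso-osmolar ones. Nrp2 fell by 0.55 ± 0.05 on the log2 scale at 600 mOsm against iso-osmolar medium (edgeR adjusted p = 4.54e-06) and by 0.72 ± 0.05 against 500 mOsm (edgeR adjusted p = 5.54e-07). Its rise of 0.16 ± 0.05 at 500 mOsm (edgeR adjusted p = 0.0277) was not called in 11 of 19 alternatives. Among these were limma on log2 FPKM and leaving out any single 500 mOsm library. A call of higher at 500 and lower at 600 mOsm, which rests on that rise, was made for this member alone, and for 1.05% of all genes tested.

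Nrp1 fell at both levels, from 28.0, 28.4 and 30.8 CPM to 21.9, 19.5 and 21.1 CPM at 500 mOsm and 18.2, 21.9 and 17.4 CPM at 600 mOsm. The stressed groups overlapped each other but not the iso-osmolar one. The log2 fold changes were -0.48 ± 0.09 (edgeR adjusted p = 0.00145) and -0.60 ± 0.09 (edgeR adjusted p = 0.000323). The FPKM ratio of Nrp2 to Nrp1 was 6.82 ± 0.468 before stress, 10.7 ± 0.491 at 500 mOsm and 7.08 ± 0.679 at 600 mOsm.

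**Figure D4:**
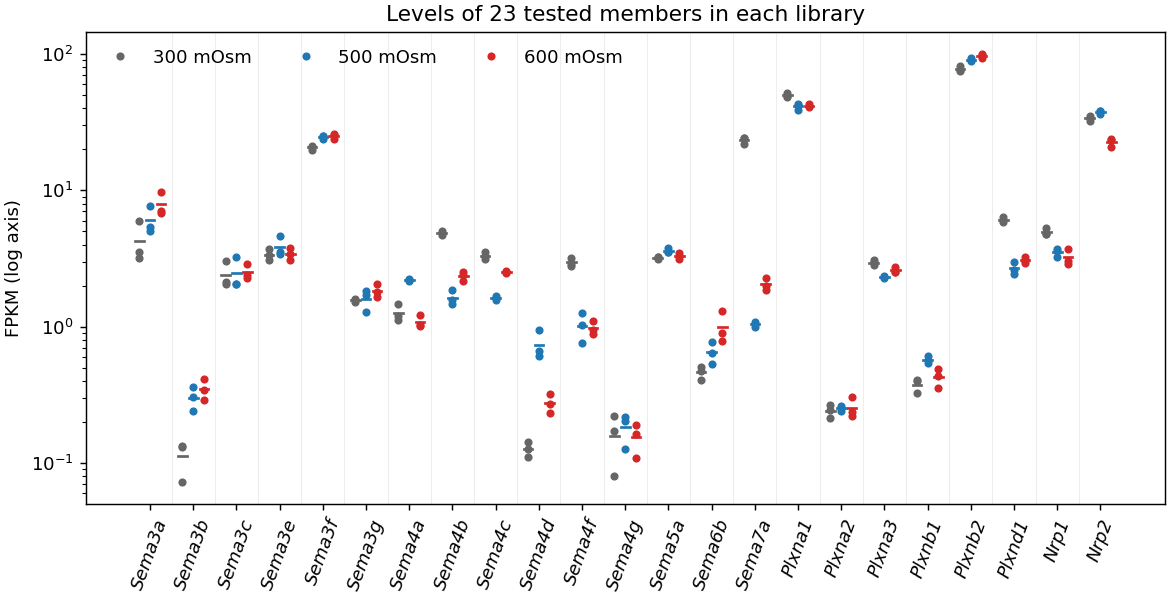
FPKM of the 23 tested members in each library (points, log axis), with a bar at the mean of each group. Plxnb2, Plxna1, Nrp2, Sema7a and Sema3f stand above all others at 300 mOsm. Under stress Sema7a drops to means of 1.04 FPKM at 500 mOsm and 2.05 FPKM at 600 mOsm, still above Sema4d, Sema3b and Plxnb1.

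At 500 mOsm the groups did not overlap for 17 of the 23 tested members, and for 40.9% of all genes. The numbers were 15 members and 48.4% of genes at 600 mOsm, and 9 members and 41.5% of genes between the stress levels. Called lower at both stress levels were 7 members (Nrp1, Plxna1, Plxnd1, Sema4b, Sema4c, Sema4f and Sema7a), and 9.12% of all genes. Called higher at both were 4 members (Plxnb2, Sema3b, Sema3f and Sema4d), and 5.66% of all genes. No call was made in any comparison for 5 members (Plxna2, Sema3c, Sema3e, Sema3g and Sema4g), and for 49.0% of all genes. No member was lower at 500 and higher at 600 mOsm against iso-osmolar medium, a pattern of 0.138% of all genes.

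Downstream of the receptors, genes whose products relay plexin signals were counted next. The list held 45 tested symbols in 46 entries of the table, since Mical3 is listed under 2 identifiers. At 500 mOsm 11 symbols rose and 4 fell, where 13.2% and 14.8% of all genes did, and at 600 mOsm 3 rose and 17 fell, where 15.1% and 20.0% of all genes did, with median log2 fold changes of 0.01 and -0.13. Rnd3, an atypical GTPase that lowers RhoA signalling, stood at 18.8 to 19.4 CPM in the iso-osmolar libraries and rose at 500 mOsm, to values between 58.5 and 69.8 CPM (1.75, edgeR adjusted p = 3.15e-08), and stood at 18.4 to 22.9 CPM at 600 mOsm. Fes, a tyrosine kinase that binds plexin A1, rose by 1.54 at 500 mOsm (edgeR adjusted p = 0.000201) and Cdk5r1, an activator of the kinase Cdk5, by 1.25 (edgeR adjusted p = 2.55e-06). All 3 were lower at 600 than at 500 mOsm, where 1 effector was higher and 20 lower, against 11.9% and 17.2% of all genes. The largest falls at 600 mOsm against iso-osmolar medium were those of the kinase gene Pak2 (-0.82), of Arhgef12 (-0.77), whose product couples plexin B to RhoA, and of the Rac exchange factor gene Tiam1 (-0.75). Without the 3 libraries highest in Sema3a, the effectors higher at 500 mOsm went from 11 to 7 and those lower from 4 to 1.

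Growth factors that bind neuropilins were lower wherever they were called. Of 8 tested, 0 were higher in any comparison by edgeR, while 3 were lower at 500 mOsm, 6 at 600 mOsm and 4 at 600 against 500 mOsm. Over all genes, 14.8%, 20.0% and 17.2% were lower in these comparisons. Vegfa, the main vascular growth factor, stood at 131 to 147 CPM in iso-osmolar medium, at 78.0 to 81.7 CPM at 500 mOsm and at 29.9 to 33.2 CPM at 600 mOsm. It fell by 0.79 (edgeR adjusted p = 4.91e-07) and by 2.13 (edgeR adjusted p = 2.74e-10) on the log2 scale. Fgf2 fell by 2.57 and 2.45 and Tgfb1 by 0.70 and 0.95, in the same order. Between the stress levels, the largest falls beside that of Vegfa were those of Pdgfb (-1.38) and Vegfb (-0.51).

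Among 10 tested partners of plexins and neuropilins, most of them membrane proteins, 2 rose and 1 fell at 500 mOsm, while at 600 mOsm 0 rose and 3 fell by edgeR, beside 13.2% and 14.8% of all genes at 500 mOsm and 15.1% and 20.0% at 600 mOsm. L1cam, the adhesion coreceptor of neuropilin 1, was rare, at 0.041 to 0.091 CPM, 0.490 to 0.801 CPM at 500 mOsm and 0.126 to 0.313 CPM at 600 mOsm, and was called at 500 mOsm. Flt4, a lymphatic VEGF receptor, rose by 1.34 there (edgeR adjusted p = 0.0274). It went from 0.164 to 0.286 CPM in iso-osmolar medium to 0.451 to 0.603 CPM, so its value rests on few counts. Erbb2, a partner of B plexins, fell by 0.41 at 500 mOsm (edgeR adjusted p = 0.000709). At 600 mOsm the falls were those of Met (-0.56), Flt1 (-0.50) and Itgb1 (-0.32), of which Itgb1 encodes the integrin chain used by Sema7A. Between the stress levels 1 partner was higher, Erbb2 (0.32), and 3 were lower, with L1cam (-1.52) and Met (-0.36) the largest. The low end of L1cam at 600 mOsm is at the level of 3 counts, 0.113 to 0.137 CPM, so its value rests on few counts.

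Of 9 tested proteases that process semaphorins or their receptors, 2 rose and 0 fell at 500 mOsm by edgeR, where 13.2% and 14.8% of all genes did. At 600 mOsm 2 rose and 2 fell, beside 15.1% and 20.0% of all genes. Adamts1, an extracellular protease, stood at 71.0 to 76.7 CPM in the iso-osmolar libraries, rose at 500 mOsm to values between 108 and 122 CPM (0.60, edgeR adjusted p = 7.56e-06) and fell at 600 mOsm to values between 48.5 and 51.6 CPM (-0.55, edgeR adjusted p = 2.38e-05). Furin, which activates class 3 semaphorins, rose by 0.23 at 500 mOsm (edgeR adjusted p = 0.0345). The sheddase gene Adam10 fell by 0.47 (edgeR adjusted p = 0.00276) and Adam15 rose by 0.28 (edgeR adjusted p = 0.0236) at 600 mOsm. Between the stress levels 1 protease was higher and 4 lower, led by Pcsk6 (-1.30), Adamts1 (-1.16) and Adam10 (-0.49). Pcsk6 was rare, at 0.369 to 0.496 CPM at 500 mOsm and 0.116 to 0.293 CPM at 600 mOsm. The low end at 600 mOsm is at the level of 3 counts, 0.113 to 0.137 CPM, so its value rests on few counts.

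The other guidance families (slits, netrins, ephrins and their receptors) had 29 tested genes, of which 6 rose and 4 fell at 500 mOsm, where 13.2% and 14.8% of all genes did, while 7 rose and 8 fell at 600 mOsm, where the shares of all genes were 15.1% and 20.0%. Epha10 went from 0 to 0.041 CPM in the iso-osmolar libraries to 0.738 to 0.829 CPM at 500 mOsm and 0.619 to 0.670 CPM at 600 mOsm, and Slit1 from 0 to 0.082 CPM to 0.915 to 2.01 CPM and 0.313 to 0.464 CPM. Both were called at both levels, but their iso-osmolar values lie under the level of 3 counts, 0.113 to 0.137 CPM, so no fold is given. Efna2, an ephrin of the A type, rose by 2.32 at 500 mOsm (edgeR adjusted p = 4.51e-06) and by 1.67 at 600 mOsm (edgeR adjusted p = 0.000139). Between the stress levels 5 were higher and 7 lower, and Epha1 (-2.14), Slit1 (-1.76) and Efnb2 (-1.34) fell most.

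Markers of cell types were read as a check of the labels. All 10 fibroblast markers were tested, and they summed to 17395 to 18520 CPM in iso-osmolar medium, 17355 to 18559 CPM at 500 mOsm and 19998 to 21848 CPM at 600 mOsm, most of it from Col1a1, Fn1 and Col1a2. Of these markers Col3a1 fell from 43.3 to 50.9 CPM before stress to 17.6 to 21.6 and 28.8 to 32.5 CPM. Pdgfra fell from 36.7 to 38.5 CPM to 22.1 to 24.2 and 21.9 to 26.7 CPM, and Prrx1 from 63.0 to 69.6 CPM to 39.5 to 46.0 and 33.6 to 36.6 CPM. Twist1 fell at 600 mOsm, from 83.4 to 120 CPM to 52.5 to 76.1 CPM. Pdgfrb rose from 260 to 274 CPM to 293 to 302 and 322 to 327 CPM. At 600 mOsm Col1a1 rose from 8391 to 9438 CPM to 10456 to 12226 CPM, and Col1a2 from 3071 to 3228 CPM to 3665 to 3807 CPM. Fn1 rose at 500 mOsm alone, and the stressed libraries of Thy1 and Lox overlapped the iso-osmolar ones. The part of these shifts in the results was not tested. The 8 endothelial markers, 3 of them tested, summed to 1.19 to 1.5 CPM in iso-osmolar medium, 12.1 to 13.5 CPM at 500 mOsm and 2.51 to 3.45 CPM at 600 mOsm. Of this Pecam1 was 10.6 to 12 CPM at 500 mOsm while Tie1 was at 0 in all libraries. Tek was also highest at 500 mOsm, at 0.452 to 0.496 CPM. In the same order of groups, Cdh5 stood at 0.45 to 0.637, 0.492 to 0.679 and 0.712 to 0.806 CPM. Esam stood at 0.246 to 0.41, 0.123 to 0.264 and 0 to 0.042 CPM. The 8 epithelial markers, 3 tested, summed to 1.43 to 1.88, 5.0 to 6.39 and 1.61 to 2.39 CPM, with Cdh1 at 3.28 to 3.69 CPM at 500 mOsm and Esrp1 at 0 throughout. The 7 macrophage markers present, 3 tested, summed to 12.2 to 13.1, 17.7 to 19.7 and 11.7 to 12.2 CPM. Most of this sum came from Csf1r. It stood at 10.564 to 12.045 CPM before stress, 13.996 to 15.29 CPM at 500 mOsm and 9.402 to 10.634 CPM at 600 mOsm. Itgam stood at 0 to 0.091, 1.319 to 2.501 and 0.116 to 0.224 CPM in the same order, and Ptprc stayed at 0.26 CPM or less. The 8 neuronal markers, 2 tested, summed to 19.4 to 26.4 CPM. Most of it came from Map2 (9.46 to 16.5 CPM) and Gap43 (7.8 to 11.3 CPM), with Snap25 and Stmn2 at 0. The endothelial, epithelial and macrophage sums were thus highest at 500 mOsm, as were Sema4a, Sema4d and Plxnb1. Most of each sum at 500 mOsm came from a single gene, Pecam1, Cdh1 and Csf1r in turn. The part of these sums in the results on Sema4a, Sema4d and Plxnb1 was not tested.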

How the data were processed

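RNA of MEFs was poly-T selected and sequenced by the authors. The submitters' processing notes name CASAVA 1.8, STAR and mm10, and the counter and its strand setting are not given in the sources used here. The authors deposited raw counts per gene and FPKM, which equal those counts divided by gene length and library total. Their fold changes and p-values were not used.

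Groups were taken from the labels. Counts of all 9 libraries were fitted together in edgeR 4.0.16 (R 4.3.3; TMM, filterByExpr, quasi-likelihood test), with Benjamini-Hochberg adjustment over 13082 genes and a threshold of 0.05, after tests on simulated data. Errors of log2 fold changes are standard errors, others SD with n = 3. The median standard error for the members was 0.116 between 600 and 500 mOsm. A level of 3 counts was 0.113 to 0.137 CPM, for counting error only. The members and lists were chosen with earlier results of these data known. Named with values in every library are members called in any comparison with a log2 fold change of 0.5 or more in size and the most abundant of each class, and of each list up to 3 called genes per comparison with the largest change. Pecam1, Cdh1 and other markers were named after their values were seen. Alternatives were RLE factors, library size alone, no filter, at least 10 counts in every library, DESeq2 1.42.0, 2 groups only, a replicate block, limma 3.58.1 on log2(FPKM + 1) or log2(FPKM + 0.1), an adjusted p under 0.01 and leaving out each library. Exon overlaps come from GENCODE M21, and promoters and motifs were read from RefSeq GRCm38.p6. Replicate numbers were not taken to pair libraries, since the labels tie them to no shared culture or day.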

Additional observations from a re-analysis of the deposited data

How the results depend on the processing

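Of 37 calls on single members, 30 were kept under every alternative that tested the gene and 0 reversed. Sema3b was not tested where at least 10 counts were required in every library. Single calls were not recounted at an adjusted p under 0.01. Of 32 results that were not called, 5 were called in some alternative, namely Sema3a at 500 mOsm (0.49) and between the stress levels (0.42) with no filter, and between the levels Plxnb1 (-0.42 with library size alone), Plxnd1 (0.30 without 500 mOsm replicate 1) and Plxnb2 (0.16 without 600 mOsm replicate 2). With each library left out in turn, members higher at 500 mOsm numbered 6 to 8 and lower 8, at 600 mOsm 6 and 8, and between the stress levels 3 to 5 and 3 to 4. With the 3 libraries highest in Sema3a left out together, added after seeing the data, 4 members were higher at 500 mOsm, and Plxnb1 (0.46), Sema3b (1.03), Plxnb2 (0.21), Nrp2 (0.16) and Sema5a (0.19) were no longer called. That setting tests fewer libraries. Plxnb2 at 500 mOsm was also not called without 500 mOsm replicate 2 (0.18). The call on Sema5a was lost in most settings. Rescaling moved the median of all genes by less than 0.1 on the log2 scale.

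Same-numbered libraries of different groups had a mean correlation of deviations of -0.24 (9 pairs, -0.69 to 0.61) and others of 0.12 (18 pairs, -0.33 to 0.60). Deviations within a group of 3 libraries cancel, so the second mean largely follows from the first and is no separate comparison. A shared number did not go with a positive mean correlation, and whether it marks a shared culture was not tested. Besides the libraries highest in Sema3a, iso-osmolar replicate 2, 500 mOsm replicate 2 and 600 mOsm replicate 3 varied together (0.61, 0.60 and 0.56). With the replicate block, members higher and lower numbered 6 and 8 at 500 mOsm, 6 and 8 at 600 mOsm, and 3 and 3 between the stress levels. The block lost the calls on Nrp2 (0.16) and Sema5a (0.17) at 500 mOsm and on Sema6b (0.63) between the levels, and changed no other call on a member.

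Changes of sign met only results that were not called. With each library left out in turn, log2 fold changes at 500 mOsm ran from -0.12 to 0.52 for Sema4g, -0.23 to 0.22 for Sema3c, -0.028 to 0.15 for Plxna2 and -0.068 to 0.19 for Sema3g. At 600 mOsm they ran from -0.0099 to 0.28 for Sema3c, -0.32 to 0.31 for Sema4g, -0.019 to 0.11 for Sema3e and -0.059 to 0.19 for Plxna2. Between the levels they ran from -0.061 to 0.31 for Sema3c, -0.23 to 0.16 for Sema4f, -0.12 to 0.13 for Plxna2 and -0.022 to 0.076 for Plxna1. With the 3 libraries left out together, Plxna2 (-0.049), Sema3c (-0.031) and Sema3g (-0.019) turned at 500 mOsm, and Sema4g at 600 mOsm (0.22) and between the levels (0.12). By limma on log2(FPKM + 0.1), Sema4g was 0.0026 at 600 mOsm and Plxna2 -0.00090 between the levels. The cause was not tested.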
